A study of Flaveria bidentis and Flaveria robusta with 100 samples.

Results

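Leaves of the C4 plant Flaveria bidentis were compared between ZT00 (zeitgeber time, hours after lights on) and ZT04, the step from dawn to morning, on 3 consecutive days. The comparison uses the authors' mean columns for ZT04 on days LD1, LD2 and LL1 against those for ZT00 on the same days, paired by day: 6 of the 50 means in the table, covering 12 of its 100 libraries. After 36 days in a greenhouse, plants spent 6 days in a chamber in which a 10 h day was held at 22 °C and a 14 h night at 20 °C. LD1 and LD2 are the entrained days, and LL1 is the day on which constant light began, so all 3 ZT00 harvests closed a night of darkness and all 3 ZT04 harvests had 4 h of light. ZT00 fell at clock hour 8 and is labelled as light. The labels give 2 biological replicates of mature leaves per time point, which the deposited mean combines. The C3 plant F. robusta was grown and harvested in the same way, and both species then passed to LL2, the free-running day that follows a night without darkness. The question named by the series title is how the circadian clock was adapted as C4 photosynthesis evolved.

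At dawn a leaf moves from spending the starch it stored to fixing carbon. Its clock runs as a loop in which the MYB factors CCA1 and LHY peak near dawn and are repressed through the day by the pseudo-response regulators PRR9, PRR7 and PRR5, while GI and FKF1 act towards the afternoon. In C4 leaves CO2 is first fixed by phosphoenolpyruvate carboxylase (PEPC) in mesophyll cells, carried as a C4 acid and released again around Rubisco in the bundle sheath. F. bidentis belongs to the group that releases CO2 mainly with NADP-malic enzyme.

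The values are RPM, read numbers set by the authors to a shared library size, as the mean they deposited for a time point and day, and are given in the order LD1, LD2, LL1. Flaveria reads were assigned to Arabidopsis genes, whose names are used. Entries for near-identical Arabidopsis genes may share the reads of 1 Flaveria gene, which leaves pairs such as CCA1 and LHY, PPC1 and PPC2, or NIA1 and NIA2 uncertain as separate genes. The step of a gene is its log2(RPM + 1) at ZT04 minus that at ZT00, averaged over the 3 days, a scale that understates changes of low genes. A gene rose or fell where limma gave a Benjamini-Hochberg adjusted p under 0.05 over all 13563 genes tested. The spread behind each p is that between days, not between plants, and is drawn towards a trend over all genes. No depth per library is used here. Light and the passage of clock time changed together from ZT00 to ZT04 and cannot be told apart. In whole leaves, fewer cells of a type and less RNA per cell cannot be told apart either.

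Of the 13563 genes, 2027 rose (14.9%) and 2104 fell (15.5%), so that 4131 (30.5%) changed. The shares that rose and fell are the background for the counts in every gene list below. The lists were chosen with earlier results of these data known, so counts set against these shares describe the lists and test nothing. The median step of all genes was -0.01. At least a 2-fold change was seen in 621 genes that rose and 570 that fell. The 3 means of one time all lay above the 3 of the other for 5795 genes (42.7%), called or not. LD1 stood apart from the other days: across genes, its steps had a Pearson correlation of 0.63 with those of LD2 and 0.69 with those of LL1, against 0.88 between LD2 and LL1, given as a description of means that share genes and platform. With any of the 3 days left out, 1 residual degree of freedom remained and no gene passed, although 5001, 3052 and 2761 genes kept an unadjusted p under 0.05 without LD1, LD2 and LL1. A wider fit over all 15 F. bidentis means taken before the lit night (every time of LD1 and LD2, and LL1 to ZT08) gave 2562 genes that rose and 2904 that fell without LD1, 1426 and 1833 without LD2, and 1818 and 1467 without LL1. Of the 4131 calls, 3903, 3023 and 3070 were made again in those 3 fits.

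The leaf markers RBCS1A (a Rubisco small subunit), LHCB3 (a light-harvesting protein) and CA1 (carbonic anhydrase) lay between 6689.5 and 10992 RPM in the 6 means of these leaf samples. Of 6 dividing-cell markers 2 were measured, and both fell: their summed level was 21, 9.5 and 23.5 RPM at ZT00 and 12, 4.5 and 5 RPM at ZT04. KNOLLE (AT1G08560) stood at 16.5, 7.5 and 19 RPM at ZT00 and at 10, 3.5 and 3.5 RPM at ZT04. KNOLLE overlapped between the times across days but was lower at ZT04 on each of them. It fell by 1.25 (SE 0.27, adjusted p = 0.011), but did not pass in the wider fit without LL1, and nor did CYCB1;1. Of 5 guard cell markers tested, 2 fell (4 without LD1 and 1 without LL1 in the wider fit), and the summed level went from between 103 and 119 RPM to between 74.5 and 93 RPM. Of 2 epidermis markers PDF1 fell, although its times overlapped and it did not pass in the wider fits without LD2 and without LL1, with sums between 243 and 265.5 RPM at ZT00 and between 156 and 221 RPM at ZT04. None of 5 vascular markers passed, and their sums overlapped, at between 507.5 and 562 RPM and between 468.5 and 533.5 RPM. The part of these cell types in the results below was not tested.

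Clock genes split, with the dawn factors CCA1, LHY and RVE8 falling and the later genes of the loop rising. Of 7 morning clock genes tested 2 rose and 3 fell, and of 13 day and evening genes 4 rose and 1 fell, where 14.9% of all genes rose and 15.5% fell. CCA1 (AT2G46830) stood at 197.5, 237 and 208.5 RPM at ZT00 and at 69, 48 and 45 RPM at ZT04. All ZT00 means lay above all ZT04 means, and CCA1 fell by 1.99 (SE 0.18, adjusted p = 0.00027). LHY (AT1G01060) stood at 688.5, 832.5 and 801.5 RPM at ZT00 and at 248.5, 192.5 and 153 RPM at ZT04. LHY fell by 1.99 (SE 0.19, adjusted p = 0.00032), again without overlap. RVE8, a MYB factor that activates evening genes in Arabidopsis, took the same course. RVE8 (AT3G09600) stood at 418, 443.5 and 411 RPM at ZT00 and at 89, 98 and 81 RPM at ZT04. It fell by 2.24 (SE 0.14, adjusted p = 5.6e-05).

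The repressors moved the other way. PRR7 (AT5G02810) stood at 8, 12.5 and 10.5 RPM at ZT00 and at 120, 118 and 110 RPM at ZT04. PRR7 rose by 3.39 (SE 0.16, adjusted p = 2.5e-05), and the 2 times did not overlap. PRR9 (AT2G46790) stood at 0, 1 and 0 RPM at ZT00 and at 6.5, 8.5 and 7.5 RPM at ZT04. PRR9 was at or near 0 at dawn and rose by 2.75 (SE 0.21, adjusted p = 0.00013). PRR5 (AT5G24470) stood at 1, 1 and 1 RPM at ZT00 and at 9.5, 11.5 and 13 RPM at ZT04. PRR5 rose by 2.62 (SE 0.16, adjusted p = 5.6e-05). PRR3 (AT5G60100) stood at 6, 10 and 8 RPM at ZT00 and at 85, 79.5 and 78 RPM at ZT04. PRR3, a relative that stabilises TOC1 in Arabidopsis, rose by 3.21 (SE 0.17, adjusted p = 3.6e-05). PRR7 with PRR3 and PRR5 with PRR9 may share reads.

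GI, which works with the blue light receptors FKF1 and ZTL in protein turnover, rose as well. GI (AT1G22770) stood at 99.5, 116 and 117.5 RPM at ZT00 and at 700, 778 and 655 RPM at ZT04. GI rose by 2.67 (SE 0.15, adjusted p = 3.6e-05). FKF1 (AT1G68050) stood at 4, 4 and 4 RPM at ZT00 and at 18.5, 57 and 46.5 RPM at ZT04. The LD1 mean at ZT04 was less than those of LD2 and LL1, yet above every ZT00 mean, and FKF1 rose by 2.92 (SE 0.29, adjusted p = 0.00061). ELF3 (AT2G25930) stood at 29, 37 and 32.5 RPM at ZT00 and at 14, 16 and 14.5 RPM at ZT04. ELF3, a member of the evening complex, fell by 1.09 (SE 0.13, adjusted p = 0.00085).

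Several clock genes did not pass. LNK1, a coactivator that binds RVE8, had a step of 0.51, and RVE6 one of -0.07. TOC1 stood at between 2 and 3.5 RPM at both times (step -0.15), and the evening complex members ELF4 and LUX had steps of 0.00 and 0.23. ZTL and LKP2, the relatives of FKF1, had steps of 0.11 and 0.06. CHE, FIO1 and JMJD5 had steps of -0.17, 0.00 and -0.41.

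**Figure D1:**
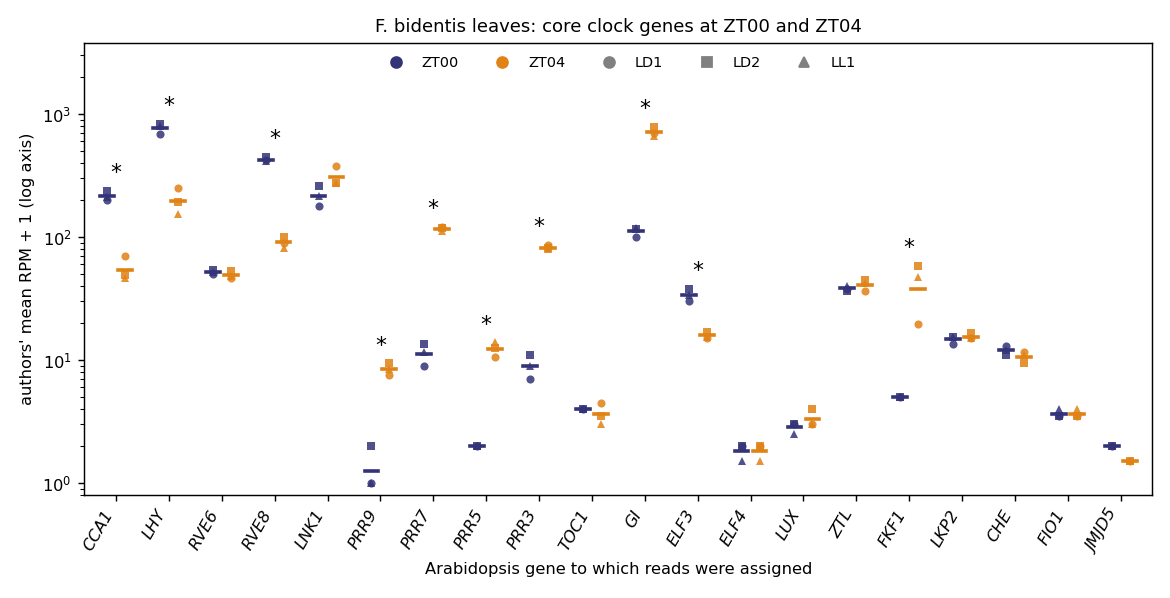
Core clock genes of F. bidentis at ZT00 (blue) and ZT04 (orange), as the authors' mean RPM plus 1 on a log axis. Each symbol is the mean of 1 day, the line is the mean of the logs over the 3 days, and an asterisk marks an adjusted p under 0.05. CCA1, LHY, RVE8 and ELF3 lay lower at ZT04 and the PRR genes, GI and FKF1 higher, while TOC1, LUX and ELF4 stayed near the bottom of the axis.

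All 10 clock output genes tested passed, with 1 rise (10%) and 9 falls (90%), against 14.9% and 15.5% of all genes. Their median step was -1.25. GRP7 (AT2G21660) stood at 48, 49 and 67.5 RPM at ZT00 and at 301, 593.5 and 619 RPM at ZT04. GRP7, a clock-controlled RNA-binding protein, rose by 3.12 (SE 0.19, adjusted p = 5.5e-05). CO (AT5G15840) stood at 101, 128.5 and 113.5 RPM at ZT00 and at 37, 27.5 and 28.5 RPM at ZT04. CO, the photoperiodic flowering activator, fell by 1.85 (SE 0.17, adjusted p = 0.00028). RVE1, a MYB factor that promotes auxin synthesis in Arabidopsis, fell by 2.06 (SE 0.19, adjusted p = 0.00029), and COL9, a CO relative, fell by 1.42 (SE 0.14, adjusted p = 0.00041). None of these 4 had overlapping times.

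More light signalling genes fell than rose. Of 20 tested, 1 rose (5%) and 8 fell (40%), against 14.9% and 15.5% of all genes. The median step was -0.42, and with TMM scaling 11 fell. SPA3 (AT3G15354) stood at 199, 206.5 and 204 RPM at ZT00 and at 89.5, 79 and 78.5 RPM at ZT04. SPA3, a partner of the COP1 ubiquitin ligase, fell by 1.29 (SE 0.14, adjusted p = 0.00061), and the entry SPA4, which may share its reads, fell by 1.27 (SE 0.15, adjusted p = 0.00079). RUP2, a repressor of the UVR8 receptor, fell by 1.33 (SE 0.15, adjusted p = 0.00065). The phototropins, blue light receptors for chloroplast and leaf movement, parted. PHOT2 (AT5G58140) stood at 750.5, 880 and 844.5 RPM at ZT00 and at 462.5, 410.5 and 361.5 RPM at ZT04. PHOT1 (AT3G45780) stood at 218, 343.5 and 305.5 RPM at ZT00 and at 344.5, 500 and 449 RPM at ZT04. PHOT2 fell by 1.01 (SE 0.15, adjusted p = 0.0023), while PHOT1 rose by 0.58 (SE 0.14, adjusted p = 0.014). The times did not overlap for either, although PHOT1 did not pass in the wider fit without LL1.

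Of 7 B-box factors, zinc finger proteins of light signalling, 1 rose (14.3%) and 4 fell (57.1%), against 14.9% and 15.5% of all genes. BBX18 (AT2G21320) stood at 147.5, 170 and 144 RPM at ZT00 and at 35, 35.5 and 32.5 RPM at ZT04. BBX18 fell by 2.13 (SE 0.14, adjusted p = 5.7e-05). BBX16 fell by 1.46 (SE 0.14, adjusted p = 0.00033), BBX15 fell by 1.35 (SE 0.15, adjusted p = 0.00061) and BBX24 fell by 0.72 (SE 0.18, adjusted p = 0.016). BBX22 was the member that rose, and it rose by 0.53 (SE 0.14, adjusted p = 0.022). Of 12 flavonoid and phenylpropanoid genes 4 fell (33.3%) and none rose. The wider fit gave 2 falls without LD1, 7 without LD2 and 1 without LL1. PAL1 (AT2G37040) stood at 819.5, 481.5 and 627.5 RPM at ZT00 and at 347.5, 351 and 315.5 RPM at ZT04. PAL1, the entry enzyme of the pathway, fell by 0.89 (SE 0.18, adjusted p = 0.0067), with 4CL1 downstream of it at -0.70 and the flavonol regulators MYB12 at -0.71 and MYB111 at -0.58. PAL1, 4CL1 and MYB111 did not pass in the wider fit without LL1, nor MYB12 and MYB111 without LD1.

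**Figure D2:**
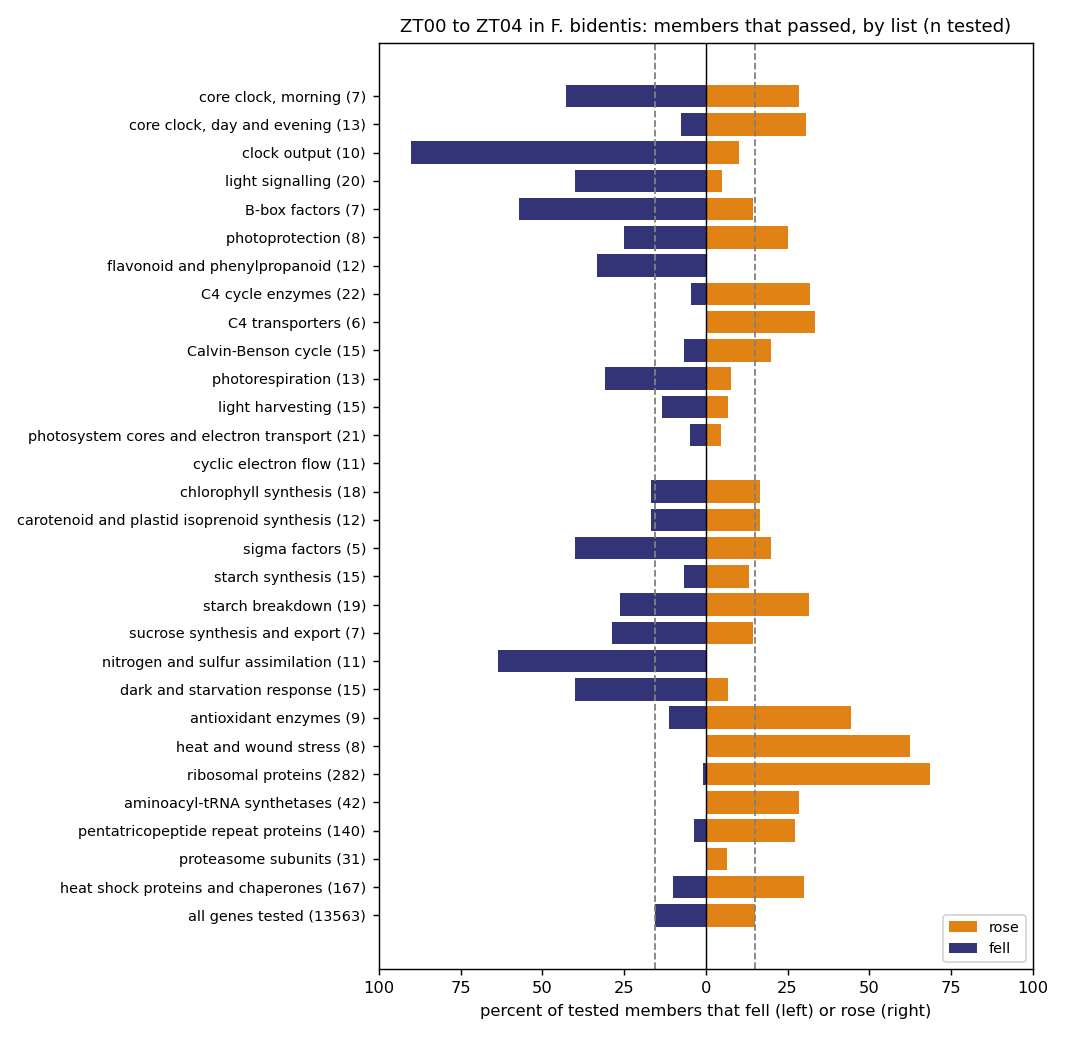
Share of the tested members of each gene list, cell type markers and the single shade gene left out, that rose (right) or fell (left) from ZT00 to ZT04 in F. bidentis, in percent, with the number tested in brackets. The dashed lines mark the shares over all 13563 genes, 14.9% that rose and 15.5% that fell. Of the lists drawn, ribosomal proteins reach furthest to the right and clock output genes furthest to the left.

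Of 22 C4 cycle enzyme entries tested, 7 rose (31.8%) and 1 fell (4.5%), against 14.9% and 15.5% of all genes. The median step was 0.18, and with TMM scaling 4 rose. In the wider fit without LD1 12 rose, RP1, RP2, ASP1, ASP5 and PPA6 among them, while 6 rose without LD2 and 5 without LL1. PEPC kinase phosphorylates PEPC in the light and relieves its inhibition by malate. Its 2 entries, which may share reads, had the largest steps. PPCK1 (AT1G08650) stood at 4.5, 9.5 and 12.5 RPM at ZT00 and at 75, 42 and 58 RPM at ZT04. PPCK2 (AT3G04530) stood at 11.5, 17.5 and 19.5 RPM at ZT00 and at 113.5, 57 and 84.5 RPM at ZT04. All ZT04 means were above all ZT00 means for both. PPCK1 rose by 2.65 (SE 0.35, adjusted p = 0.0039), and PPCK2 rose by 2.30 (SE 0.27, adjusted p = 0.0013).

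PEPC itself, on which the kinase acts, had smaller steps. PPC1 (AT1G53310) stood at 18710.5, 22092.5 and 22323.5 RPM at ZT00 and at 27381, 28675 and 28188.5 RPM at ZT04. PPC1 rose by 0.42 (SE 0.09, adjusted p = 0.011), without overlap. The entry PPC2, which may hold reads of the same genes, rose by 0.39 (SE 0.10, adjusted p = 0.022). CA1 (AT3G01500) stood at 7293, 7016.5 and 6934 RPM at ZT00 and at 10786, 8960 and 9662.5 RPM at ZT04. CA1, which supplies bicarbonate to PEPC, rose by 0.47 (SE 0.10, adjusted p = 0.011). These 3 calls were lost with TMM scaling, where adjusted p values were 0.059, 0.08 and 0.051, and both PPC entries also missed in the wider fit without LL1.

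AlaAT1 (AT1G17290) stood at 771, 870 and 907.5 RPM at ZT00 and at 1325, 1611.5 and 1480.5 RPM at ZT04. AlaAT1, alanine aminotransferase, rose by 0.79 (SE 0.13, adjusted p = 0.0027). NAD-ME1 (AT2G13560) stood at 88.5, 81.5 and 83.5 RPM at ZT00 and at 118, 115 and 114.5 RPM at ZT04. NAD-ME1, a mitochondrial malic enzyme, rose by 0.45 (SE 0.14, adjusted p = 0.038), but not in the wider fit without LD2. PCK1 (AT4G37870) stood at 60.5, 47.5 and 61 RPM at ZT00 and at 35, 33 and 32 RPM at ZT04. PCK1, phosphoenolpyruvate carboxykinase, was the C4 entry that fell and fell by 0.73 (SE 0.14, adjusted p = 0.0061).

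The other steps of the cycle showed small values. PPDK (AT4G15530) stood at 26113.5, 27540 and 28588.5 RPM at ZT00 and at 26207, 27657 and 27948.5 RPM at ZT04. PPDK, pyruvate orthophosphate dikinase, which regenerates the PEPC substrate, had a step of -0.01. The NADP-malic enzyme entries NADP-ME1, NADP-ME2 and NADP-ME4, which may share reads, had steps of 0.00, -0.02 and -0.02. NADP-MDH, which makes malate, had a step of 0.03. Both PPDK regulatory proteins leaned up without passing, RP1 at 0.31 and RP2 at 0.31. The remaining entries had steps of -0.24 for the adenylate kinase AMK2, 0.07 for the pyrophosphatase PPA6, and -0.23 for NAD-ME2. The aspartate aminotransferases ASP1, ASP2, ASP3 and ASP5 had steps of 0.43, 0.18, 0.15 and 0.18.

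Of 6 transporters of C4 metabolites, 2 rose (33.3%, against 14.9% of all genes). In the wider fit without LD1 BASS2 and DIT1 passed too, making 4, and TPT fell. DIT2.2 (AT5G64280) stood at 255.5, 207.5 and 227 RPM at ZT00 and at 382.5, 517.5 and 480.5 RPM at ZT04. DIT2.2, a plastid dicarboxylate carrier, rose by 0.99 (SE 0.17, adjusted p = 0.0042). PPT1 (AT5G33320) stood at 981.5, 1004.5 and 1004.5 RPM at ZT00 and at 1413.5, 1563.5 and 1573.5 RPM at ZT04. PPT1, which moves phosphoenolpyruvate across the plastid envelope, rose by 0.60 (SE 0.12, adjusted p = 0.0077). Neither pair of times overlapped. BASS2, the pyruvate importer, had a step of 0.30 with an adjusted p of 0.077, and PPT2, DIT1 and TPT had steps of 0.04, 0.34 and -0.27.

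**Figure D3:**
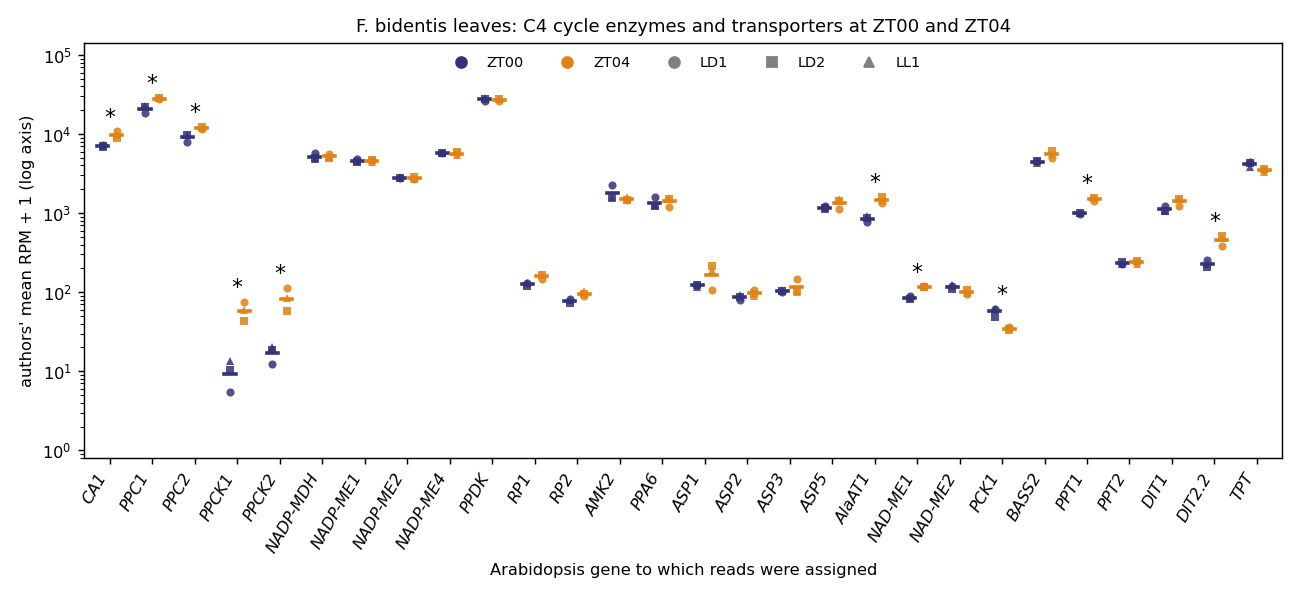
C4 cycle enzymes and transporters of F. bidentis at ZT00 (blue) and ZT04 (orange), as the authors' mean RPM plus 1 on a log axis. Symbols are the means of single days, lines the mean of the logs, and asterisks mark an adjusted p under 0.05. The PEPC kinases show the widest gap between the times, while PPDK and the NADP-ME entries overlap.

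Of 15 Calvin-Benson cycle genes 3 rose (20%) and 1 fell (6.7%), against 14.9% and 15.5% of all genes. In the wider fit without LD1 5 rose and 2 fell. The 3 that rose were all CP12 proteins, linkers that hold 2 enzymes of the cycle inactive in the dark. CP12-2 (AT3G62410) stood at 228, 244.5 and 238 RPM at ZT00 and at 614.5, 615.5 and 650.5 RPM at ZT04. CP12-2 rose by 1.401 (SE 0.14, adjusted p = 0.00037). CP12-1, which may share its reads, rose by 1.42 (SE 0.14, adjusted p = 0.00043), and CP12-3 rose by 0.75 (SE 0.15, adjusted p = 0.0063). RCA (AT2G39730) stood at 11470, 11653.5 and 11172.5 RPM at ZT00 and at 6888.5, 7083.5 and 7161.5 RPM at ZT04. RCA, Rubisco activase, fell by 0.70 (SE 0.10, adjusted p = 0.0017).

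In photorespiration 4 of 13 genes fell (30.8%) and 1 rose (7.7%), against 15.5% and 14.9% of all genes. The wider fit gave 7 falls without LD1 and 2 without LD2. GLDP2 (AT2G26080) stood at 2587.5, 3192 and 2830.5 RPM at ZT00 and at 1414.5, 1019 and 1003 RPM at ZT04. GLDP2, the P protein of glycine decarboxylase, fell by 1.34 (SE 0.16, adjusted p = 0.00094), and HPR1, hydroxypyruvate reductase, fell by 0.73 (SE 0.15, adjusted p = 0.0089). SGAT, the peroxisomal serine:glyoxylate aminotransferase, fell by 0.76 (SE 0.20, adjusted p = 0.022). LPD1, mitochondrial lipoamide dehydrogenase, rose by 0.53 (SE 0.15, adjusted p = 0.03). SGAT and LPD1 did not pass in the wider fit without LD2.

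Over all genes 14.9% rose and 15.5% fell. Of 15 light-harvesting genes 1 rose (6.7%) and 2 fell (13.3%), the falls near the share of all genes. Of 21 genes for photosystem cores and electron transport 1 rose and 1 fell (4.8% each), and of 11 for cyclic electron flow none passed. The medians of these lists were -0.00, -0.10 and -0.05. LHCA1 (AT3G54890) stood at 4996, 5272.5 and 4859.5 RPM at ZT00 and at 7966, 8040.5 and 8298.5 RPM at ZT04. LHCA1, an antenna protein of photosystem I, rose by 0.68 (SE 0.10, adjusted p = 0.0024). PSAD2, a photosystem I subunit, rose by 0.54 (SE 0.11, adjusted p = 0.0088). The falls of LHCB5 (-0.35), LHCB6 (-0.43) and PSBQ2 (-0.37) were lost with TMM scaling and in the wider fits without LD2 and without LL1. Without LD1 5 of the 21 photosystem and electron transport genes fell, and without LD2 3 of the 15 light-harvesting genes rose.

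Pigment genes passed in both directions at shares near those of all genes. Of 18 chlorophyll synthesis genes 3 rose and 3 fell (16.7% each, against 14.9% and 15.5%). With TMM scaling and in the wider fits without LD2 and without LL1 1 rose, and 5 fell without LL1. CAO (AT1G44446) stood at 986, 1227 and 1031 RPM at ZT00 and at 545.5, 671 and 613.5 RPM at ZT04. CAO, which makes chlorophyll b, fell by 0.82 (SE 0.13, adjusted p = 0.0026). HEMB1 and CHLD also fell, by 0.63 and 0.58 on the log2 scale, while PORB, a protochlorophyllide reductase, rose by 0.62 (SE 0.14, adjusted p = 0.011). Of 12 carotenoid and plastid isoprenoid genes 2 rose and 2 fell, also 16.7% each, with 4 rises without LD1 and 1 without LD2. LCYB (AT3G10230) stood at 98.5, 87 and 94 RPM at ZT00 and at 176.5, 192 and 195 RPM at ZT04. PSY (AT5G17230) stood at 946, 800 and 799.5 RPM at ZT00 and at 439.5, 474 and 425.5 RPM at ZT04. LCYB, lycopene cyclase, rose by 1.004 (SE 0.15, adjusted p = 0.0019), and PSY, which makes phytoene and opens the pathway, fell by 0.92 (SE 0.14, adjusted p = 0.0023). BCH1, a carotene hydroxylase, fell by 0.71 (SE 0.16, adjusted p = 0.012). DXR, of the precursor pathway, rose by 0.52 (SE 0.15, adjusted p = 0.029), but not in the wider fit without LD2.

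Of 8 photoprotection genes 2 rose and 2 fell (25% each), against 14.9% and 15.5% of all genes. The wider fit without LD1 gave 2 rises and 3 falls, and that without LL1 gave 1 of each. ELIP1 (AT3G22840) stood at 145, 69.5 and 90.5 RPM at ZT00 and at 264.5, 221.5 and 220.5 RPM at ZT04. ELIP1, an early light-induced protein, rose by 1.26 (SE 0.18, adjusted p = 0.0017), and did not pass in the wider fit without LL1. ZEP (AT5G67030) stood at 515.5, 754 and 706.5 RPM at ZT00 and at 1319.5, 1283 and 1193.5 RPM at ZT04. ZEP, zeaxanthin epoxidase, rose by 0.96 (SE 0.16, adjusted p = 0.0033). OHP1 and OHP2, which help build photosystem II, fell by 0.44 and 0.40, OHP2 not in the wider fit without LL1. Of 5 sigma factors of the plastid RNA polymerase 1 rose (20%) and 2 fell (40%). SIG3 rose by 1.05 (SE 0.19, adjusted p = 0.0049). SIG1 fell by 0.61 (SE 0.13, adjusted p = 0.011) and SIG5 fell by 0.86 (SE 0.20, adjusted p = 0.012).

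Starch breakdown held the largest fall of any listed gene. Of 19 genes 6 rose (31.6%) and 5 fell (26.3%), against 14.9% and 15.5% of all genes. BAM9 (AT5G18670) stood at 125, 145.5 and 124.5 RPM at ZT00 and at 5, 2 and 2 RPM at ZT04. BAM9, a member of the beta-amylase family, fell by 5.13 (SE 0.22, adjusted p = 2.5e-05), with every ZT04 mean at or under 5 RPM. BAM3 (AT4G17090) stood at 603.5, 550 and 575 RPM at ZT00 and at 76, 194.5 and 139.5 RPM at ZT04. BAM3, a plastid beta-amylase that makes maltose at night, fell by 2.17 (SE 0.26, adjusted p = 0.00088), and BAM4 fell by 1.54 (SE 0.14, adjusted p = 0.00023). LSF1, a phosphatase-like protein, and DPE1, a plastid glucanotransferase, fell by 0.44 and 0.54, LSF1 not in the wider fit without LL1.

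Other enzymes of the same route rose. GWD1 (AT1G10760) stood at 93.5, 83 and 95 RPM at ZT00 and at 390, 487 and 467.5 RPM at ZT04. GWD1, which phosphorylates starch granules and opens them to attack, rose by 2.29 (SE 0.16, adjusted p = 7.4e-05). DPE2 (AT2G40840) stood at 54.5, 42 and 45.5 RPM at ZT00 and at 126, 192.5 and 173.5 RPM at ZT04. DPE2, which handles maltose in the cytosol, rose by 1.76 (SE 0.20, adjusted p = 0.00063). Of 15 starch synthesis genes 2 rose (13.3%, near the 14.9% of all genes) and 1 fell, with 5 rises in the wider fit without LD1. GBSS1 (AT1G32900) stood at 984, 1056.5 and 1036 RPM at ZT00 and at 1496.5, 1975.5 and 1873 RPM at ZT04. GBSS1, the granule-bound synthase, rose by 0.79 (SE 0.13, adjusted p = 0.0031). SS2, a starch synthase, fell by 1.21 (SE 0.26, adjusted p = 0.011), and ISA2, a debranching enzyme subunit, rose by 0.68 (SE 0.17, adjusted p = 0.018). Neither SS2 nor ISA2 passed in the wider fit without LD2.

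Of 7 genes for sucrose synthesis and export 1 rose (14.3%) and 2 fell (28.6%), against 14.9% and 15.5% of all genes. SPS4F (AT4G10120) stood at 241.5, 402.5 and 333 RPM at ZT00 and at 133, 170.5 and 136 RPM at ZT04. SPS4F, a sucrose phosphate synthase, fell by 1.12 (SE 0.15, adjusted p = 0.0015). SWEET11, a sucrose exporter, fell by 0.40 (SE 0.13, adjusted p = 0.048) and SPP1, sucrose phosphatase, rose by 0.51 (SE 0.15, adjusted p = 0.038), and both missed in the wider fits without LD2 and without LL1, SPP1 also with TMM scaling.

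In nitrogen and sulfur assimilation 7 of 11 genes fell (63.6%) and none rose, against 15.5% and 14.9% of all genes. The median step was -0.75. NIA2 (AT1G37130) stood at 1348.5, 1822 and 1863 RPM at ZT00 and at 249, 574 and 464 RPM at ZT04. NIA1 (AT1G77760) stood at 1380, 1866.5 and 1987.5 RPM at ZT00 and at 261, 628 and 511.5 RPM at ZT04. Both nitrate reductase entries lay lower at ZT04 on every day, and furthest on LD1. NIA2 fell by 2.03 (SE 0.17, adjusted p = 0.00017) and NIA1 fell by 1.98 (SE 0.17, adjusted p = 0.00021). NRT1.1, a nitrate transporter and sensor, fell by 1.35 (SE 0.16, adjusted p = 0.00082), and APR1, which reduces activated sulfate, fell by 0.84 (SE 0.14, adjusted p = 0.004).

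Of 15 genes of the dark and starvation response 6 fell (40%) and 1 rose (6.7%), against 15.5% and 14.9% of all genes. The median step was -0.83. TPS10 (AT1G60140) stood at 93, 140 and 100.5 RPM at ZT00 and at 20, 17 and 12 RPM at ZT04. TPS10, a class II trehalose phosphate synthase protein, fell by 2.70 (SE 0.18, adjusted p = 7.4e-05), and the entry TPS9, which may share its reads, fell by 2.42 (SE 0.22, adjusted p = 0.00026). DIN10 (AT5G20250) stood at 92.5, 132 and 97 RPM at ZT00 and at 23, 13.5 and 10 RPM at ZT04. DIN10, a raffinose synthase family protein, fell by 2.77 (SE 0.24, adjusted p = 0.00025). ASN1 (AT3G47340) stood at 157, 261 and 256 RPM at ZT00 and at 53, 42 and 39.5 RPM at ZT04. ASN1, an asparagine synthetase induced in darkness, fell by 2.27 (SE 0.22, adjusted p = 0.00038). BZIP11, a transcription factor repressed by sucrose through translation, rose by 0.96 (SE 0.15, adjusted p = 0.0025). The wider fit counted 11 falls without LD1, 6 without LD2 and 7 without LL1.

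Of 9 antioxidant enzymes 4 rose (44.4%) and 1 fell (11.1%), against 14.9% and 15.5% of all genes. CAT2 (AT4G35090) stood at 1832.5, 2832 and 2585 RPM at ZT00 and at 4886, 4439 and 4159 RPM at ZT04. CAT2 and CAT3, catalase entries that may share reads, had rises of 0.92 and 1.05. APX1 (AT1G07890) stood at 282, 201.5 and 257.5 RPM at ZT00 and at 511, 404 and 438.5 RPM at ZT04. APX1 and APX2, ascorbate peroxidase entries that may also share reads, had rises of 0.87 and 0.82. For these 4 entries the adjusted p was between 0.003 and 0.0046. FSD1, an iron superoxide dismutase, fell by 0.78 (SE 0.20, adjusted p = 0.022), with overlapping times, and missed without LD2 and without LL1.

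Of 8 heat and wound stress genes 5 rose (62.5%) and none fell, against 14.9% and 15.5% of all genes. The median step was 0.81. HSP90.1 (AT5G52640) stood at 156, 117.5 and 155 RPM at ZT00 and at 539, 792 and 713.5 RPM at ZT04. HSP90.1, a cytosolic chaperone, rose by 2.24 (SE 0.19, adjusted p = 0.0002). HSP101, a disaggregase, rose by 1.59 (SE 0.18, adjusted p = 0.00068). BIP2, a chaperone of the endoplasmic reticulum, rose by 1.44 (SE 0.17, adjusted p = 0.00078). LOX2 (AT3G45140) stood at 259.5, 264 and 239 RPM at ZT00 and at 826.5, 479 and 446 RPM at ZT04. LOX2, a lipoxygenase of jasmonate synthesis, rose by 1.14 (SE 0.19, adjusted p = 0.0032). Chambers were at 20 °C in the dark and 22 °C in the light, and the part of temperature in these values was not tested.

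Most ribosomal protein entries rose. Of 282 ribosomal protein entries, taken by their descriptions, 193 rose and 2 fell, with a median step of 0.75, against 14.9% and 15.5% and a median of -0.01 over all genes. The median step of the entries was 0.34 on LD1, 1.06 on LD2 and 0.90 on LL1, so the rise was smallest on LD1. The wider fit counted 215 rises without LD1, 127 without LD2 and 152 without LL1. Entries were caught by words of a family name, so the list may hold proteins that are not parts of the ribosome. Cytosolic and organelle members were not separated. Among the entries of smallest p were a pair described as ribosomal protein S5 and elongation factor G family proteins. AT1G56070 stood at 364.5, 316 and 424.5 RPM at ZT00 and at 851.5, 1215.5 and 1229.5 RPM at ZT04. It rose by 1.56 (SE 0.17, adjusted p = 0.00052), and its close relative AT3G12915, which may share its reads, rose by 1.60 (SE 0.17, adjusted p = 0.00049). AT1G25260, of the L10 family, rose by 1.69 (SE 0.22, adjusted p = 0.0011), and AT3G18240, a mitochondrial S24/S35 protein, rose by 1.08 (SE 0.15, adjusted p = 0.0014). The 2 that fell were AT1G17080 and AT1G53560, both of the L18ae family, at -0.70 and -0.63, and neither passed in the wider fit without LD2.

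Of 42 aminoacyl-tRNA synthetases, which load amino acids onto tRNAs, 12 rose (28.6%) and none fell, against 14.9% and 15.5% of all genes. The wider fit gave 21 rises without LD1 and 5 without LD2. AT4G39280 stood at 52, 47.5 and 50 RPM at ZT00 and at 92, 124 and 125.5 RPM at ZT04. This phenylalanyl-tRNA synthetase rose by 1.16 (SE 0.16, adjusted p = 0.0014). Of 140 pentatricopeptide repeat proteins, which mostly process organelle RNA, 38 rose (27.1%) and 5 fell (3.6%). Their median step was 0.36, and without LD2 19 rose and 2 fell. AT5G46580 stood at 15.5, 11 and 16.5 RPM at ZT00 and at 58, 97 and 103.5 RPM at ZT04. It rose by 2.48 (SE 0.21, adjusted p = 0.0002), and AT4G18520 rose by 2.36 (SE 0.20, adjusted p = 0.00019). Of 31 proteasome entries 2 rose: AT3G13330, the activator PA200, rose by 1.02 (SE 0.18, adjusted p = 0.0045), and AT5G45620, a PCI domain protein, rose by 0.49 (SE 0.14, adjusted p = 0.032), the second of them not in the wider fit without LD2. Without LD1 and without LL1 5 proteasome entries rose.

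Heat shock proteins and chaperones taken by description gave 50 rises (29.9%) and 17 falls (10.2%) among 167 entries, against 14.9% and 15.5% of all genes. The median step was 0.09, and without LD2 11 fell. The J-domain proteins spread over both ends. AT1G71000 stood at 0, 0 and 0.5 RPM at ZT00 and at 11, 18 and 17.5 RPM at ZT04. It rose by 3.82 (SE 0.19, adjusted p = 3.4e-05), and AT5G23240 rose by 3.62 (SE 0.21, adjusted p = 4e-05). AT2G17880 stood at 82.5, 134 and 78 RPM at ZT00 and at 17.5, 12 and 12.5 RPM at ZT04. This entry fell by 2.70 (SE 0.22, adjusted p = 0.00015). AT1G80920, also a J-domain protein, had ZT00 means of 194, 353 and 191 RPM and ZT04 means of 45, 14.5 and 13 RPM, and it fell by 3.46 (SE 0.49, adjusted p = 0.0095).

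**Figure D4:**
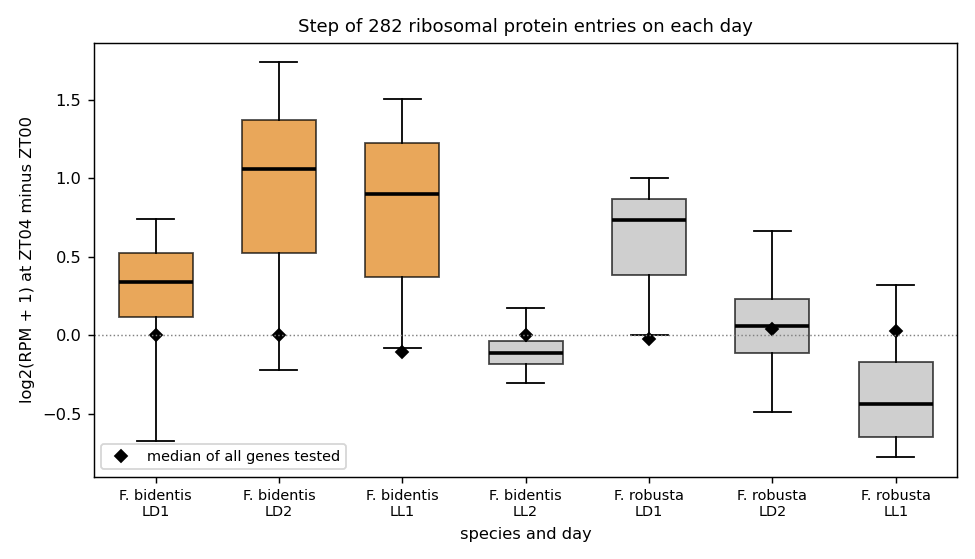
Step from ZT00 to ZT04 (log2(RPM + 1)) of the 282 ribosomal protein entries on each day. Boxes span the quartiles with the median as a line, whiskers reach from the 5th to the 95th percentile, and diamonds mark the median of all genes tested. The F. bidentis boxes of LD1, LD2 and LL1 (orange) lie above 0, that of LL2 just under it, and the F. robusta boxes run from above 0 on LD1 to below 0 on LL1.

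Outside the lists, the largest rises included both enzymes that build the parts of vitamin B1. AT5G54770 stood at 166.5, 185.5 and 259.5 RPM at ZT00 and at 2708.5, 3627 and 4275 RPM at ZT04. This thiazole synthase (THI1) rose by 4.11 (SE 0.13, adjusted p = 9.3e-06), the smallest adjusted p of the genes named here. AT2G29630 stood at 51, 54.5 and 68.5 RPM at ZT00 and at 513.5, 855 and 967.5 RPM at ZT04. THIC, which makes the pyrimidine part, rose by 3.69 (SE 0.17, adjusted p = 2.5e-05). The largest rise of all genes tested was that of a putative phosphoglucomutase. AT1G70820 stood at 6, 5.5 and 5 RPM at ZT00 and at 103, 238 and 207.5 RPM at ZT04. It rose by 4.74 (SE 0.25, adjusted p = 4e-05). AT2G29090, CYP707A2, which breaks down abscisic acid in Arabidopsis, rose by 2.95 (SE 0.16, adjusted p = 3.6e-05). The others were AT5G53450 (OBP3-responsive gene 1), AT1G27930, AT5G20190 and AT4G19390, with steps of 3.39, 3.22, 3.05 and 2.92.

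Among the largest falls outside the lists were 2 entries for beta-galactosidases, enzymes of cell wall turnover, and these entries may share reads. AT3G13750 stood at 798.5, 1191 and 788 RPM at ZT00 and at 82.5, 54.5 and 51 RPM at ZT04. Beta-galactosidase 1 fell by 3.87 (SE 0.22, adjusted p = 3.6e-05), and beta-galactosidase 12 (AT4G26140) fell by 3.85 (SE 0.22, adjusted p = 3.8e-05). AT3G29240 stood at 70.5, 74.5 and 50 RPM at ZT00 and at 2.5, 1.5 and 2 RPM at ZT04. This protein of unknown function fell by 4.45 (SE 0.18, adjusted p = 2.5e-05). AT3G01640, a glucuronokinase, fell by 3.24 (SE 0.21, adjusted p = 6.9e-05). AT1G22930 and AT4G09150, both described as T-complex protein 11, had steps of -3.79 and -3.33, AT5G56550 (oxidative stress 3) one of -3.48, AT4G17370 one of -3.44 and the ABC transporter AT4G27420 one of -3.10.

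The step was then set against that of F. robusta, whose 6 means share no sample with those of F. bidentis. The difference between the steps passed for 477 of 13563 genes (3.52%), higher in F. bidentis for 200 (1.47%) and lower for 277 (2.04%). The steps had opposite signs in 276 of the 477. The count rested on the days: 2828 genes passed without LD1, none without LD2 (1328 at an unadjusted p under 0.05) and 15 without LL1. In a wider fit over 30 means the counts without these days were 3011, 127 and 153, and 472, 124 and 142 of the 477 passed again. Of the genes listed by identifier 18 passed, and of these GWD1, PRR7 and DIN10 passed in all 3 of the wider fits that left out a day. Among the entries taken by description, the J-domain proteins AT1G56300 and AT1G71000 and the pentatricopeptide repeat protein AT1G18900 did so as well, at differences of 2.19, 1.67 and 1.51.

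Both PEPC entries had positive steps in F. bidentis and negative steps in F. robusta. Reads of the 2 species may not match the Arabidopsis genes equally well, and the comparison is therefore between steps, not levels. Different Flaveria genes may also supply an entry in the 2 species, which a comparison of steps does not solve. PPC1 averaged 21042.2 RPM at ZT00 in F. bidentis and 743.7 RPM in F. robusta. Whether the PEPC entries hold the same genes in both was not tested. In F. robusta PPC1 stood at 676, 729 and 826 RPM at ZT00 and at 379.5, 504.5 and 445.5 RPM at ZT04. The difference between the steps was 1.17 (SE 0.16, adjusted p = 0.0073), and for PPC2 1.197 (SE 0.17, adjusted p = 0.0091). Both missed without LL1 in the wider fit. In F. robusta DIT2.2 stood at 120, 137 and 112 RPM at ZT00 and at 131.5, 97.5 and 79 RPM at ZT04. For DIT2.2 the difference was 1.28 (SE 0.26, adjusted p = 0.031). In F. robusta GLDP2 stood at 6674.5, 5575.5 and 6034 RPM at ZT00 and at 5238, 6152.5 and 6804 RPM at ZT04. The GLDP2 means of the 2 times overlapped in F. robusta, and the difference was -1.33 (SE 0.23, adjusted p = 0.019). DIT2.2 and GLDP2 missed in the wider fit without LD2 and without LL1.

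DIN10 and ASN1, of the starvation response, had the largest differences among the 18. In F. robusta DIN10 stood at 8, 11 and 9.5 RPM at ZT00 and at 8, 12.5 and 10.5 RPM at ZT04. The levels in F. robusta overlapped between the times, and the difference for DIN10 was -2.87 (SE 0.31, adjusted p = 0.0032). In F. robusta ASN1 stood at 17.5, 16 and 19 RPM at ZT00 and at 17, 19.5 and 21 RPM at ZT04. For ASN1 it was -2.40 (SE 0.29, adjusted p = 0.0043), which missed in the wider fit without LD2. TPS10 had steps of -2.70 in F. bidentis and -1.30 in F. robusta, a difference of -1.398 (SE 0.25, adjusted p = 0.019).

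In F. robusta GWD1 stood at 153.5, 135 and 152.5 RPM at ZT00 and at 169.5, 240 and 276.5 RPM at ZT04. GWD1 had the smaller step there, and the difference was 1.68 (SE 0.24, adjusted p = 0.0091). In F. robusta PRR7 stood at 29.5, 27 and 36.5 RPM at ZT00 and at 129.5, 151 and 182.5 RPM at ZT04. PRR7 had the higher mean at ZT04 on each day in F. robusta as well, and the difference was 1.11 (SE 0.21, adjusted p = 0.024). Heat and wound genes HSP90.1, HSP101, BIP2 and LOX2 all had higher steps in F. bidentis, by between 1.02 and 1.44. Ribosomal proteins, for which the F. robusta median step was 0.10, had a median difference of 0.64 between the species, and 2 of 282 entries passed. In simulated data the species test recovered 44 of 100 genes changed by 1 on the log2 scale. The F. robusta medians of the ribosomal proteins by day were 0.73, 0.06 and -0.44.

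Beyond the lists, the lowest adjusted p belonged to AT2G20670, of unknown function. AT2G20670 stood at 4, 6 and 3.5 RPM at ZT00 and at 0.5, 2 and 1 RPM at ZT04. In F. robusta AT2G20670 stood at 0, 0.5 and 1.5 RPM at ZT00 and at 6, 12 and 18.5 RPM at ZT04. Its levels were low in both species and its times did not overlap in either. The difference was -4.34 (SE 0.24, adjusted p = 0.00019). BT4 (AT5G67480) and BT5 (AT4G37610), related BTB and TAZ domain proteins, also fell in F. bidentis and had higher ZT04 than ZT00 means in F. robusta on every day, with differences of -4.31 (SE 0.40, adjusted p = 0.0027) and -3.74 (SE 0.37, adjusted p = 0.003). Histidine kinase 1 (AT2G17820), an osmosensor in Arabidopsis, went the other way. AT2G17820 stood at 15.5, 23 and 21.5 RPM at ZT00 and at 42, 50.5 and 42 RPM at ZT04. In F. robusta AT2G17820 stood at 43, 44 and 51.5 RPM at ZT00 and at 10, 15.5 and 15.5 RPM at ZT04. The difference was 2.85 (SE 0.21, adjusted p = 0.00072).

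LL2 offered the same step of the clock hours without a night of darkness before it. Light history and free-running time changed together there and cannot be told apart. With 1 pair of means, the LL2 step has no replicate of its own and the fit takes it to vary like the other 3 days. It differed from the step after a dark night for 141 genes (1.04%), higher for 108 (0.796%) and lower for 33 (0.243%), and 136 of the 141 had the smaller step on LL2. With TMM scaling 52 passed, and without trended and robust variances none did (2037 at an unadjusted p under 0.05). None passed with any 1 of the 3 days left out, with 3157, 1019 and 810 at an unadjusted p under 0.05, while a wider fit over 17 means passed 2394, 118 and 208 genes without LD1, LD2 and LL1. Of the genes listed by identifier 18 passed, all with the smaller step on LL2, and 7 of them passed with TMM scaling: GI, PRR7, PRR3, RVE8, BBX18, BAM9 and TPS10. Among the entries taken by description 1 pentatricopeptide repeat protein and 4 chaperones passed, HSP90.1 of the identifier lists included, and of these AT1G71000 passed with TMM scaling.

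On LL2 the starch gene BAM9 and the starvation gene TPS10 were low already at subjective dawn. On LL2 BAM9 stood at 1 RPM at ZT00 and 0.5 RPM at ZT04. The difference from the step after a dark night was 4.71 (SE 0.46, adjusted p = 0.011). On LL2 TPS10 stood at 10 RPM at ZT00 and 13 RPM at ZT04. The difference was 3.05 (SE 0.37, adjusted p = 0.013). Both LL2 means at ZT00 were under every ZT04 mean of the earlier days.

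On LL2 PRR7 stood at 49 RPM at ZT00 and 68.5 RPM at ZT04. PRR7 was above its dark-night dawn level and below its ZT04 level, and its LL2 step differed by -2.91 (SE 0.31, adjusted p = 0.013). On LL2 GI stood at 487 RPM at ZT00 and 653 RPM at ZT04. For GI the difference was -2.25 (SE 0.29, adjusted p = 0.017). On LL2 RVE8 stood at 20 RPM at ZT00 and 23.5 RPM at ZT04. RVE8 was under every ZT04 mean of the earlier days at both times, and its difference was 2.46 (SE 0.28, adjusted p = 0.013). On LL2 AT5G54770 stood at 1802 RPM at ZT00 and 2909.5 RPM at ZT04. THI1 (AT5G54770), outside the lists, was above every earlier ZT00 mean at both times, and the difference was -3.42 (SE 0.26, adjusted p = 0.011). The median step of the ribosomal proteins on LL2 was -0.12, and their median difference from the step after a dark night was -0.85. None of the 282 passed the test of the difference. In simulated data that test recovered only 7 of 100 genes changed by 1 on the log2 scale. The simulated noise came from the species fit and was drawn for each gene apart. It therefore does not say how often a difference in these ribosomal entries would be found.

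**Figure D5:**
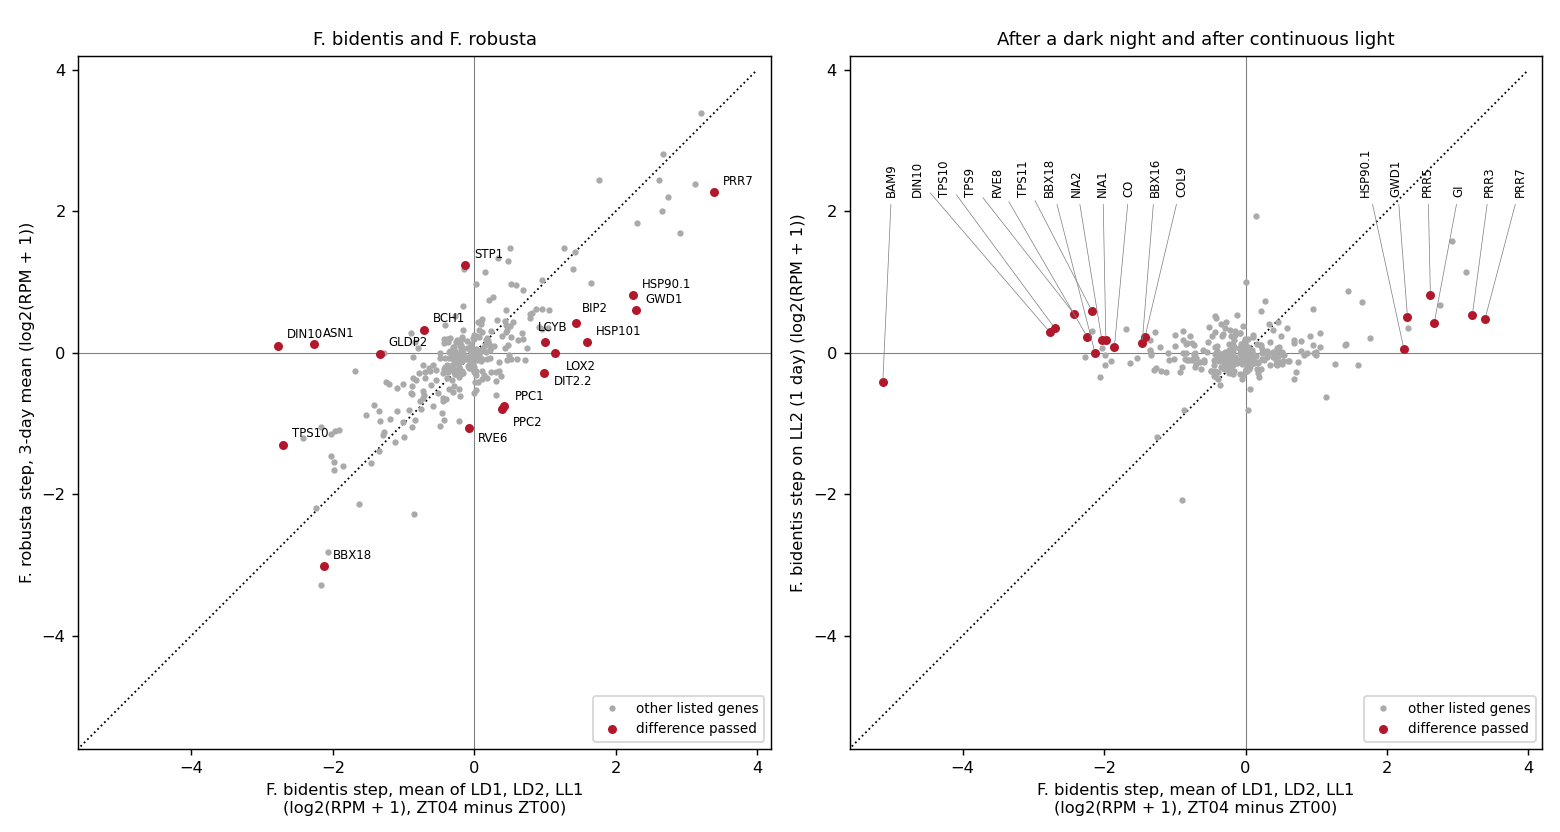
Steps of the genes listed by identifier (log2(RPM + 1), ZT04 minus ZT00) in F. bidentis, as the mean of LD1, LD2 and LL1, against the mean step of F. robusta over the same days (left) and against the single F. bidentis step on LL2 (right). Red points are genes whose difference had an adjusted p under 0.05, and the dotted line marks equal steps. On the left most points follow the line and the red ones lie off it, and on the right points spread along the horizontal axis at LL2 steps near 0.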

How the data were processed

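The deposited table holds 21869 Arabidopsis gene identifiers with RPM values that the authors averaged over the libraries of each time point, in steps of 0.5 RPM. The submitters' processing notes name CASAVA and TAIR10 without their roles; the aligner and the counter are not given in the sources used. Another 200 columns, per library, carry numbers that match no sample title and were not used. Libraries were single reads of 100 bp, 12 to a lane, per the labels.

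Genes with at least 1 RPM over the 50 means (13563) were fitted as log2(RPM + 1) with limma 3.58.1 (R 4.3.3), day as a block, trended and robust variances, and Benjamini-Hochberg adjustment, after a check on simulated data. The species test adds F. robusta, with the interaction as the difference. The LL2 test adds the 2 LL2 means. In the simulated data 21 of 217 calls of the step were false. For the species and LL2 differences 8 of 149 and 12 of 92 were false. For the step and LL2 the share of false calls was thus above the 0.05 set as threshold. There were 2 residual and 6.34 prior degrees of freedom for the step. Alternatives were scaling (TMM), pseudocount, filter, variance model, minimum ratio, day block, samples fitted and each day left out.

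The 29 gene lists by identifier and 5 by description were chosen with earlier results of these data known. Up to 4 called members of a list were named by smallest adjusted p, with any that went against it, and all core clock and C4 members. Outside the lists, up to 10 genes in each direction with at least 10 RPM were named by fold, and up to 6 by adjusted p for each difference. No sequence was used.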

Additional observations from a re-analysis of the deposited data

Results flagged for a closer look

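The step from ZT00 to ZT04 in F. bidentis was tested against that in F. robusta and against that on LL2, and the named genes whose difference passed (limma, adjusted p under 0.05) are given here as differences on the log2 scale. Groups of 3 days are too small for a test of single outlying values.

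Against F. robusta, the step of F. bidentis was higher for the clock genes PRR7 by 1.11 and RVE6 by 0.99, and for BBX18 by 0.88. RVE6 had steps of -0.07 in F. bidentis and -1.06 in F. robusta. BBX18 fell in both, with steps of -2.13 and -3.01. The F. bidentis step was also higher for the C4 entries PPC1 by 1.17, PPC2 by 1.197 and DIT2.2 by 1.28. For GWD1 it was higher by 1.68 and for LCYB by 0.86. Stress genes were higher as well, HSP90.1 by 1.42, HSP101 by 1.44, BIP2 by 1.02 and LOX2 by 1.15. The difference was negative for GLDP2 at -1.33, BCH1 at -1.04, ASN1 at -2.40, DIN10 at -2.87, TPS10 at -1.398 and the sugar transporter STP1 at -1.36. STP1 and RVE6 did not pass the F. bidentis test itself. Of these 18 genes, only GWD1, PRR7 and DIN10 passed in all 3 wider fits that left out a day.

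Outside the lists, positive differences from F. robusta were 2.50 for AT1G30910 and 2.69 for AT5G44720, both molybdenum cofactor sulfurase family proteins. They were 2.85 for AT2G17820 (histidine kinase 1), 2.92 for AT4G31500 (a cytochrome P450 of family 83), and 2.07 and 2.44 for the nicotianamine synthases AT5G04950 and AT1G09240. Negative differences were -4.34 for AT2G20670, -2.49 for AT1G18940 (a nodulin-like protein), -3.001 for AT5G11920 (a fructan exohydrolase), -4.31 for AT5G67480 (BT4), -3.74 for AT4G37610 (BT5) and -2.67 for AT3G49930 (a zinc finger protein).

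On LL2 the steps of genes that had risen after a dark night were lower. The differences were -2.91 for PRR7, -2.68 for PRR3, -1.79 for PRR5, -2.25 for GI, -1.78 for GWD1 and -2.19 for HSP90.1. Genes that had fallen gave positive differences: 2.46 for RVE8, 1.93 for CO, 1.65 for COL9, 2.13 for BBX18 and 1.59 for BBX16. The metabolic genes among them gave 4.71 for BAM9, 2.15 for NIA1, 2.22 for NIA2, 3.07 for DIN10, 2.96 for TPS9, 3.05 for TPS10 and 2.75 for TPS11. Of the 18 listed genes with an LL2 difference, 7 passed with TMM scaling.

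Outside the lists, the LL2 difference was 3.64 for AT3G49930, 3.82 for AT3G29240, 3.003 for AT1G18940, 3.42 for AT4G27420, 3.04 for AT5G49360 (beta-xylosidase 1) and 3.48 for AT5G56550. It was -3.42 for AT5G54770 (THI1), -2.98 for AT2G29630 (THIC), -3.53 for AT5G53450, -3.17 for AT2G29090 (CYP707A2), and -2.59 and -2.48 for the tetratricopeptide repeat proteins AT5G20190 and AT4G32340.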

How the results depend on the processing

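No paired analysis was possible by replicate number, because the columns are the authors' means over libraries and carry none; the fits pair the times by day instead. Counts are given as genes higher and genes lower. From ZT00 to ZT04, 2027 and 2104 genes passed, and a minimum ratio of 1.5 left 289 and 328, while variances without trend and robust fitting left 1184 and 1410. Leaving out LD1, LD2 or LL1 left 0 and 0, with 1 residual degree of freedom. TMM scaling, other pseudocounts and filters, no day block and the wider fit over 15 means each kept both counts within 1.5 times. In that wider fit, leaving out a day gave from 1426 to 2562 higher and from 1467 to 2904 lower.

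The difference from F. robusta, at 200 and 277, went to 20 and 34 with the minimum ratio, to 335 and 476 without the day block, and to 132 and 199 without trend and robust fitting. The wider fit over 30 means gave 451 and 564. Leaving out a day gave from 0 to 1181 higher and from 0 to 1647 lower, with 0 without LD2, and in the wider fit from 51 (without LD2) to 1277 and from 76 to 1734, with 72 and 81 without LL1. The LL2 difference, at 108 and 33, went to 37 and 15 with TMM, 24 and 10 with the minimum ratio, 0 and 0 without trend and robust fitting, and 163 and 60 with the filter at 1 RPM over the means in the fit. The pseudocount of 0.1 gave 73 and 19, and the wider fit over 17 means 547 and 367. Leaving out a day gave 0 and 0, and in the wider fit from 88 to 1321 and from 30 to 1073, with 70 lower without LL1. The wider fits with a day left out, and those over 30 and 17 means, were chosen after seeing the data. The cause of these moves was not tested.

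For the named genes of the step, 2296 of 2998 values under the alternatives kept their call, 684 lost it, 18 gained one and 0 reversed. For the named species and LL2 differences 374 of 476 and 283 of 449 kept theirs and 0 reversed. Depth per library is not used here, so counting error at low RPM, such as that of PRR9 or TOC1, cannot be given. The p-values rest on the spread over 3 days, drawn towards a trend over all genes. That trend had 6.34 degrees of freedom against 2 of the gene itself.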
